A study of Mus musculus with 6 samples.

Results

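Notch signalling was examined through 10 genes in mouse subchondral bone, the bone under the joint cartilage, taken from the mandibular condyle where the lower jaw meets the skull. The genes were chosen by name, as the receptors Notch1, Notch2, Notch3 and Notch4, the ligands Jag1, Dll1 and Dll4, and the target genes Hes1, Hey1 and Heyl. All 10 were found among the 23170 genes of the authors' deposited table, and each stood above the lowest value of that table in both groups. The tested tissue came from 3 libraries labelled as partial discectomy, the surgical removal of part of the joint's fibrous disc, and was set against 3 libraries labelled as sham operation. Mice of both groups carried the strain label wild type with no background named, were operated on 1 side, and gave bone from the operated joint. Their common age label, P6w+PO2w, holds 6 weeks and 2 weeks behind prefixes that are not spelled out. The sample descriptions end in LPD for partial discectomy and Rctrl for sham, so anything else that these letters stand for cannot be told apart from the surgery. The number before these letters is 6 in 1 library of each group, and the labels do not say whether it marks the same mouse in both. Nor do they say whether each library came from its own mouse or from pooled mice, so the spread behind the p-values may in part be technical.

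Notch receptors are membrane proteins that are switched on by a ligand on a neighbouring cell. Binding leads to a cut by the protease ADAM10 and then by gamma-secretase, which frees the inner part of the receptor to enter the nucleus, join the DNA-binding protein RBPJ and a Mastermind coactivator, and turn on genes such as those of the HES and HEY repressors. In bone the pathway is known for holding marrow progenitors back from becoming osteoblasts, and in vessels for setting arterial fate and the choice between sprouting and resting endothelial cells.

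None of the 10 Notch genes passed an adjusted p under 0.05 in the authors' deposited table, in either direction. Over all genes of the authors' deposited table that rule called 2.28% higher and 0.104% lower, 2.38% in all, after partial discectomy, so a count of 0 among 10 genes is near the background and is no result about the Notch genes. The differences with the smallest p-values were a lower mean of the ligand Jag1 and higher means of the receptors Notch4 and Notch1 after partial discectomy. With p under 0.05 before adjustment, the authors' deposited table had 2 of the 10 genes higher and 1 lower, beside 10.9% higher and 3.31% lower, or 14.2% in either direction, of all genes. Ratios above 1 were found for 8 of the 10 genes in the authors' deposited table, beside 62.7% of all genes. The median log2 ratio was 0.17 for the 10 genes and 0.08 for all genes, both from the authors' deposited table.

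The values are normalized signals whose unit is not named, given as a mean for each group. The smallest group mean in the authors' deposited table is exactly 1, called the floor below and read here as an offset added to every library's value. Ratios divide the partial discectomy mean by the mean of sham tissue with the floor included. Their 95% limits and p-values are the authors' own, and no source used here names the model behind them. For Notch1 the p-value and the limits fall on different sides of their thresholds. Values of single libraries were not analysed here, and sequencing depth is unknown. Beside the group means, the authors' deposited table gives the highest value and the geometric mean over the 6 libraries. Together these fix a range that holds every library of a group, and for some genes they show which group has the highest library. The highest library was certain to be a partial discectomy library for 3 of the 10 genes and a sham library for 1, where all genes gave 44.6% and 21.9% by the columns of the authors' deposited table.

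**Figure D1:**
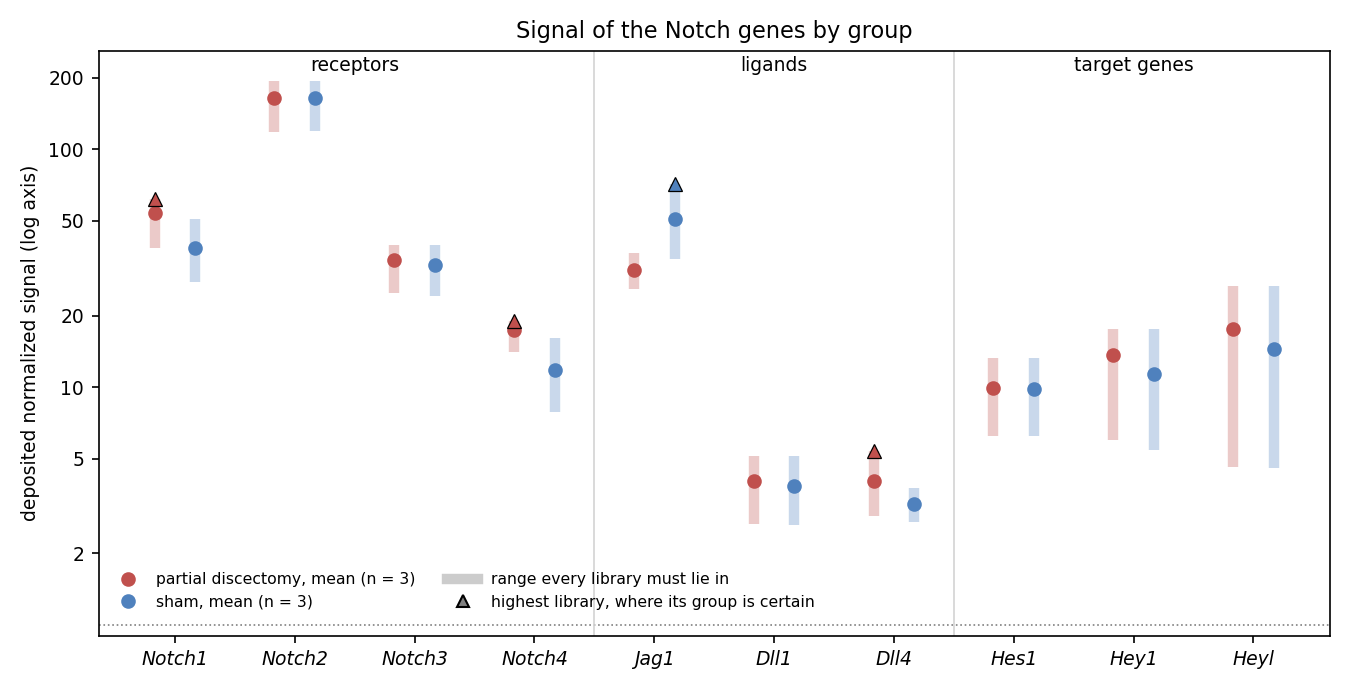
Deposited normalized signal on a log axis for the 10 Notch genes, with partial discectomy in red and sham in blue. Points are group means, pale bars the range in which all 3 libraries of a group must lie, triangles the highest library where its group is certain, and the dotted line the floor of 1. The bars of Jag1 overlap from 34.5 to 36.8 and those of Notch4 from 14.0 to 16.1, while those of Notch2, Hes1, Hey1 and Heyl lie side by side.

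The stretches before the transcription starts of Notch1, Notch4 and Jag1 are shown because these are the 3 genes with an unadjusted p under 0.05. They were taken from RefSeq (GRCm38.p6, the build named mm10 in the labels), read 5′ to 3′ on the gene's strand, and hold no base of a GENCODE exon. Of the 10 genes, 7 had a RefSeq promoter window of 250 bases before to 50 after the start, with 8 windows in all. These were the receptors and ligands, with Dll1 counted more than once. No window was available for the target genes Hes1, Hey1 and Heyl, so their promoters were not searched. Capitals mark GC boxes, the letters GGGCGG on either strand, which the factor Sp1 binds. Notch1 is shown upstream of its RefSeq start within the longer deposited gene, at chr2:26503823-26504072 on the minus strand, Notch4 at chr17:34564045-34564267 on the plus strand and Jag1 at chr2:137116645-137116770 on the minus strand.
Notch1: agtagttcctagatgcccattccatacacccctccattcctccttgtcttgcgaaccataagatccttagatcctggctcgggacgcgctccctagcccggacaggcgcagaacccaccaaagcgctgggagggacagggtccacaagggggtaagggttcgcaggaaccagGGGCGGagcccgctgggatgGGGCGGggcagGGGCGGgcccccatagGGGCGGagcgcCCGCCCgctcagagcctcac
Notch4: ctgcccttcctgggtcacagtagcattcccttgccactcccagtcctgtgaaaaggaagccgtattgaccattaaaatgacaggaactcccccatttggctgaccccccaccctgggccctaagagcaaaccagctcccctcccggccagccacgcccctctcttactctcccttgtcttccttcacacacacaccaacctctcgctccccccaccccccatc
Jag1: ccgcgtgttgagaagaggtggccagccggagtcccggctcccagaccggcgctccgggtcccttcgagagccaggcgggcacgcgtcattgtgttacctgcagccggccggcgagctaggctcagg
The Notch1 stretch holds 5 GC boxes and has 66.0% G and C, the Notch4 stretch holds 0 boxes and has 59.2%, and the Jag1 stretch holds 0 and has 70.6%. Over all RefSeq promoter windows, which with their bases past the start are longer than the stretches shown, 35.7% hold a GC box. The core letters bound by RBPJ, TGGGAA on either strand, are in 0 of the 8 windows of the receptors and ligands and in 25.6% of the 32851 windows. A match or its lack describes these letters only.

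Notch2 was the most abundant receptor and had nearly the same mean in both groups. This receptor, which acts in osteoclast and marginal zone B cell development, lies on chromosome 3 from 98013527 to 98150361 (mm10). Notch2 had a mean signal of 164.3 after partial discectomy, against 164.6 in sham tissue, which gives 0.998 in the ratio column of the authors' deposited table (95% limits 0.695 to 1.43, adjusted p = 0.997). The libraries of Notch2 lay between 119 and 193 after partial discectomy and between 119 and 193 in sham by the columns of the authors' deposited table. The group of its highest library is not certain, so that value is the upper limit for both groups. The real spread of each group is not known. Its limits hold ratios on both sides of 1.

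Notch1, which steers T cell fate and vessel sprouting, lies on chromosome 2 from 26457903 to 26516663. Notch1 had a mean signal of 54.1 after partial discectomy, against 38.7 in sham tissue, which gives 1.40 in the ratio column of the authors' deposited table (limits 0.992 to 1.98, unadjusted p = 0.0464, adjusted p = 0.339). The highest Notch1 library, at 62.0, was a partial discectomy library, and the other libraries of that group averaged 50.2 by the columns of the authors' deposited table. Libraries of Notch1 lay between 38.3 and 62.0 after partial discectomy and between 27.7 and 50.8 in sham by the authors' deposited table, so whether the groups overlap is not determined. Without its highest library the log2 ratio of Notch1 in the authors' deposited table was 0.38, against 0.49 with it.

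Notch4, found mostly in endothelial cells, lies on chromosome 17 from 34564268 to 34588503. Notch4 had a mean signal of 17.3 after partial discectomy, against 11.8 in sham tissue, which gives 1.47 in the ratio column of the authors' deposited table (limits 1.02 to 2.13, unadjusted p = 0.0303, adjusted p = 0.279). The highest Notch4 library was a partial discectomy library at 19.0, and the other libraries of that group averaged 16.5 by the columns of the authors' deposited table. Libraries lay between 14.0 and 19.0 after partial discectomy and between 7.89 and 16.1 in sham for Notch4 by the authors' deposited table, so that overlap is possible but not certain. Its log2 ratio without the highest library was 0.49, against 0.56 with it, from the authors' deposited table.

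Notch3, the receptor of pericytes and vascular smooth muscle, lies on chromosome 17 from 32120820 to 32166852. Notch3 had a mean signal of 34.2 after partial discectomy, against 32.6 in sham tissue, which gives 1.05 in the ratio column of the authors' deposited table (limits 0.762 to 1.45, adjusted p = 0.865). Its libraries lay between 25.0 and 39.7 after partial discectomy and between 24.2 and 39.7 in sham by the columns of the authors' deposited table. The log2 ratio of Notch3 was 0.07, which turns to -0.01 when set against the median of all genes in the authors' deposited table.

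Jag1 was the ligand with the most signal and the gene of the 10 with the lowest ratio. It encodes a membrane ligand that signals from endothelium to smooth muscle and from osteoblasts to marrow cells, and lies on chromosome 2 from 137081456 to 137116644. Jag1 had a mean signal of 31.1 after partial discectomy, against 51.0 in sham tissue, which gives 0.610 in the ratio column of the authors' deposited table (limits 0.413 to 0.901, unadjusted p = 0.0258, adjusted p = 0.260). The highest Jag1 library was a sham library at 71.6, which held 46.7% of the sham total where an even spread gives 33.3%, and the other sham libraries averaged 40.8 by the columns of the authors' deposited table. Libraries of Jag1 lay between 25.8 and 36.8 after partial discectomy and between 34.5 and 71.6 in sham by the authors' deposited table. These ranges overlap between 34.5 and 36.8, since each is a limit taken on its own. No library values that meet all columns for Jag1 at once let the groups overlap, so each partial discectomy library was below each sham library. Groups apart in that direction were certain for 1 of the 10 genes and in the other direction for 0, beside 3.32% and 10.3% of all genes by the columns of the authors' deposited table. Without the highest sham library the log2 ratio of Jag1 in the authors' deposited table was -0.39, against -0.71 with it.

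Dll4, the ligand of arterial and sprouting endothelial cells, lies on chromosome 2 from 119325784 to 119335962. Dll4 had a mean signal of 4.02 after partial discectomy, against 3.22 in sham tissue, which gives 1.25 in the ratio column of the authors' deposited table (limits 0.850 to 1.84, adjusted p = 0.649). The highest Dll4 library, at 5.37, was a partial discectomy library, and the other libraries of that group averaged 3.35 by the columns of the authors' deposited table. Without that library the log2 ratio of Dll4 in the authors' deposited table was 0.06, against 0.32 with it. Leaving out the highest value of the higher group lowers the ratio by construction. Libraries of Dll4 lay between 2.87 and 5.37 after partial discectomy and between 2.70 and 3.76 in sham by the authors' deposited table.

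Dll1, a ligand best known from somite formation and from marginal zone B cells, lies on chromosome 17 from 15367354 to 15376872. Dll1 had a mean signal of 4.04 after partial discectomy, against 3.84 in sham tissue, which gives 1.05 in the ratio column of the authors' deposited table (limits 0.704 to 1.57, adjusted p = 0.887). Its libraries lay between 2.64 and 5.15 after partial discectomy and between 2.62 and 5.15 in sham by the columns of the authors' deposited table. Set against the median of all genes, the log2 ratio of Dll1 in the authors' deposited table turns from 0.07 to -0.01.

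The 3 target genes encode repressors with a basic helix-loop-helix domain, and none of them had an unadjusted p under 0.05. Hes1, a broad readout of Notch that other pathways also turn on, lies on chromosome 16 from 30064384 to 30067796. Hes1 had a mean signal of 9.91 after partial discectomy, against 9.80 in sham tissue, which gives 1.01 in the ratio column of the authors' deposited table (limits 0.669 to 1.53, adjusted p = 0.971). Its libraries lay between 6.23 and 13.2 after partial discectomy and between 6.22 and 13.2 in sham by the columns of the authors' deposited table. As for Notch2, the upper limit is the highest library, whose group is not certain, so these limits do not show that the groups cover the same range. The log2 ratio of Hes1 was 0.02 and became -0.06 against the median of all genes in the authors' deposited table.

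Hey1, a target in arterial endothelium and in osteoblasts, lies on chromosome 3 from 8663359 to 8667256. Hey1 had a mean signal of 13.6 after partial discectomy, against 11.3 in sham tissue, which gives 1.20 in the ratio column of the authors' deposited table (limits 0.683 to 2.12, adjusted p = 0.716). Its libraries lay between 6.00 and 17.6 after partial discectomy and between 5.45 and 17.6 in sham by the columns of the authors' deposited table. Heyl, a target in vascular smooth muscle, lies on chromosome 4 from 123233556 to 123249875. Heyl had a mean signal of 17.5 after partial discectomy, against 14.5 in sham tissue, which gives 1.20 in the ratio column of the authors' deposited table (limits 0.545 to 2.66, adjusted p = 0.646). Its libraries lay between 4.63 and 26.7 after partial discectomy and between 4.56 and 26.7 in sham by the columns of the authors' deposited table, the widest such limits for its level among the 10 genes. For Hey1 and Heyl the limits reach from well below 1 to above 2.

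**Figure D2:**
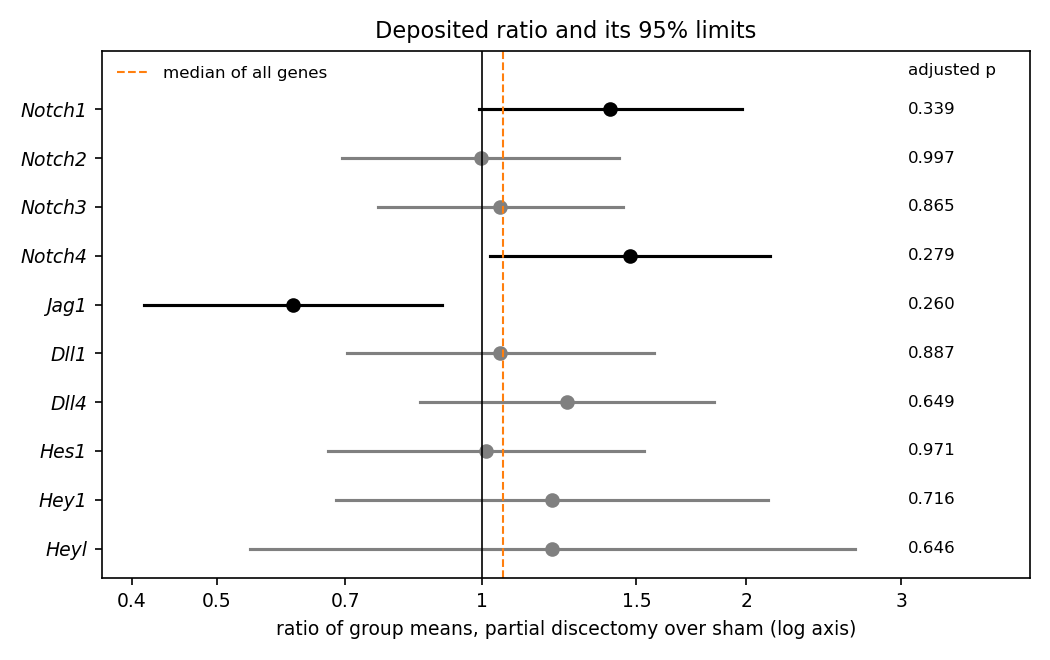
Deposited ratio of group means, partial discectomy over sham, on a log axis for the 10 Notch genes, with bars for the authors' 95% limits and the adjusted p at the right. Black marks an unadjusted p under 0.05, the solid line equal means and the dashed line the median of all genes; Jag1 lies left of both lines at 0.610 and Notch4 right of both at 1.47.

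By the 95% limits of the authors' deposited table, 1 of the 10 genes lay above equal means, Notch4, and 1 below, Jag1, beside 11.1% and 3.59% of all genes. Set against the median of all genes the limits in the authors' deposited table left 0 of the 10 above and 1 below, Jag1, beside 8.11% and 6.65% of all genes. No Notch gene was called after readjusting the p-values of the authors' deposited table over genes whose mean exceeded the floor by 1 or more, where 3.22% were higher and 0.145% lower. Nor was one called over genes exceeding it by 5 or more, where the authors' deposited table gave 2.27% higher and 0.0972% lower, or over protein-coding genes, where it gave 3.68% and 0.156%.

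Levels of different genes were compared per kilobase, since the deposited signal grows with transcript length. Protein-coding genes whose mean exceeded the floor by 5 or more had a median signal above the floor of 34.6 in the longest of 4 equal classes of transcript length and 12.0 in the shortest, from the authors' deposited table. Signal above the floor was therefore divided by the length of the longest protein-coding transcript in GENCODE vM21. Per kilobase, Notch2 led at 15.6 after partial discectomy and 15.6 in sham. After partial discectomy came Hes1 at 6.07, Notch1 at 5.60, Jag1 at 5.37, Hey1 at 5.21, Notch3 at 4.14, Heyl at 3.63 and Notch4 at 2.48, with Dll1 at 0.848 and Dll4 at 0.807 last, all as signal per kilobase. In sham the order was Jag1 at 8.91, Hes1 at 5.99, Hey1 at 4.26, Notch1 at 3.97, Notch3 at 3.94, Heyl at 2.98, Notch4 at 1.63, Dll1 at 0.793 and Dll4 at 0.592 by the same measure. The library ranges of neighbours in this order can overlap, except after partial discectomy between Notch2 and Hes1 and between Notch4 and Dll1. Jag1 made up 76.4% of the summed per-kilobase signal of the 3 ligands after partial discectomy and 86.5% in sham. Notch2 made up 56.0% of that of the 4 receptors after partial discectomy and 62.0% in sham, and Notch1 20.2% and 15.8%.

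The rest of the pathway also held no call. Of 51 further pathway genes on the lists, 48 were in the authors' deposited table, and 0 of them passed an adjusted p under 0.05 in either direction. Over all genes that rule called 2.38%, so this count is near the background and is no result about these genes. With p under 0.05 before adjustment, the authors' deposited table had 5 of the 48 higher and 0 lower, beside the 10.9% and 3.31% of all genes given above. Their median log2 ratio was 0.14, with 36 of 48 ratios above 1 in the authors' deposited table.

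Among enzymes that add sugars to the receptors, 2 of 5 had an unadjusted p under 0.05, beside 14.2% of all genes in either direction. Both were of the Fringe family, which tunes the response to Delta and Jagged ligands. Mfng had a mean signal of 3.37 after partial discectomy, against 2.08 in sham tissue, which gives 1.62 in the ratio column of the authors' deposited table (limits 1.19 to 2.20, unadjusted p = 0.00536, adjusted p = 0.115). Every Mfng library after partial discectomy was above every sham library, with ranges of 2.76 to 3.68 after partial discectomy and 1.69 to 2.50 in sham by the columns of the authors' deposited table. Lfng averaged 16.5 after partial discectomy, against 10.3 in sham tissue, with a ratio of 1.60 in the authors' deposited table (1.06 to 2.42, adjusted p = 0.249). Pofut1, which adds the fucose that Fringe enzymes extend, had a ratio of 0.971 (0.745 to 1.27) in the authors' deposited table.

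Of 5 further targets in the authors' deposited table, 1 had an unadjusted p under 0.05, beside 14.2% of all genes in either direction. It was Nrarp, a target that dampens Notch signalling. Nrarp had a mean signal of 3.81 after partial discectomy, against 2.38 in sham tissue, which gives 1.60 in the ratio column of the authors' deposited table (limits 1.13 to 2.26, unadjusted p = 0.0115, adjusted p = 0.178). Every Nrarp library after partial discectomy lay between 3.23 and 4.10, above the sham range of 1.75 to 3.08 by the columns of the authors' deposited table. Ccnd1, a cell cycle gene that many pathways turn on and the most abundant of these targets, had a ratio of 0.892 (0.599 to 1.33) in the authors' deposited table. The lists also named Hes5 and Ptcra among targets and Dll3 among ligands, which were not analysed here.

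Of 13 genes of ligand and receptor trafficking or turnover, 2 had an unadjusted p under 0.05 in the authors' deposited table, the Deltex family genes Dtx3l at a ratio of 1.41 (1.01 to 1.97) and Dtx1 at 1.40 (1.04 to 1.89). With 14.2% of all genes past that rule in either direction, this count is near the background. Dtx1 lay close to the floor, at 1.78 after partial discectomy and 1.27 in sham in the authors' deposited table. The ubiquitin ligase Mib1, which lets ligands pull on the receptor, had a ratio of 0.846 (0.623 to 1.15) in the authors' deposited table. Numbl, a relative of the Notch inhibitor Numb, averaged 29.3 after partial discectomy, against 40.3 in sham tissue, with a ratio of 0.728 in the authors' deposited table (0.532 to 0.996, adjusted p = 0.365), and was singled out after its values were seen. Of 10 genes of receptor cleavage, 0 had an unadjusted p under 0.05 in the authors' deposited table. All 10 of their ratios were above 1, beside 62.7% of all genes. Adam10, the protease of the first cut, had a ratio of 1.31 in the authors' deposited table (0.909 to 1.88, adjusted p = 0.495). Of 12 genes of the nuclear complex and its corepressors, 0 had an unadjusted p under 0.05 in the authors' deposited table, and the corepressor Ncor1 had a ratio of 1.10 (0.787 to 1.53). Among the other ligands Jag2 had a ratio of 1.18 in the authors' deposited table (0.827 to 1.68, adjusted p = 0.709). By the columns of the authors' deposited table the groups were certainly apart for 3 of the 48 genes with partial discectomy higher and for 2 with it lower, beside the 10.3% and 3.32% given above. The 3 were Mfng, Nrarp and Dlk1, the last near the floor at 1.23 after partial discectomy and 1.09 in sham in the authors' deposited table, and the 2 were Numbl and Neurl1a.

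**Figure D3:**
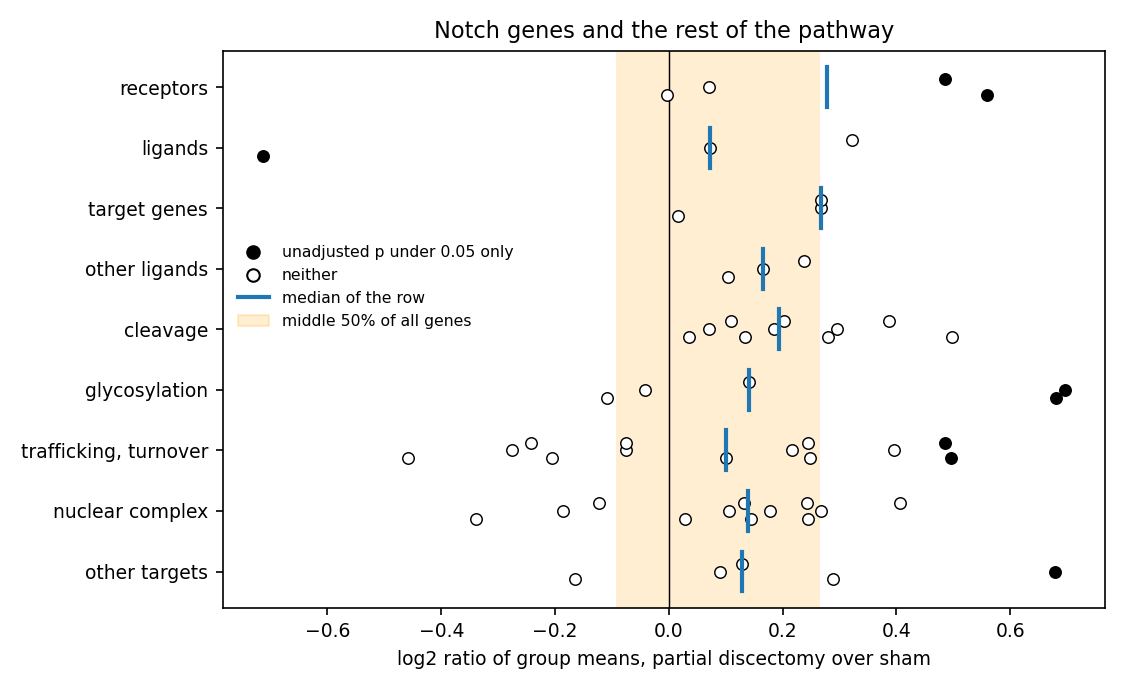
Log2 ratio of group means, partial discectomy over sham, for the 10 Notch genes in 3 rows and 48 further pathway genes in 6 rows. Filled points have an unadjusted p under 0.05 (no gene has an adjusted p under it), blue ticks are row medians and the shaded band holds the middle 50% of all genes; Jag1 lies alone at the far left, and Notch1, Notch4, Mfng, Lfng, Dtx1, Dtx3l and Nrarp form the filled points at the right.

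The bone holds many cell types, and in bulk RNA fewer cells of a type and less RNA per cell cannot be told apart. Markers of bone were present, with a summed signal above the floor of 70471 after partial discectomy and 54526 in sham for 12 osteoblast genes, against 153 and 232 for 7 skeletal muscle genes, as sums not corrected for length. Col1a1, the main bone collagen, had a mean of 34180 after partial discectomy and 27783 in sham in the authors' deposited table. Endothelial markers stood beside the receptors Notch4 and Notch1. Of 16 endothelial genes 0 were called in the authors' deposited table, 7 were higher and 0 lower at an unadjusted p under 0.05, and 16 of 16 ratios were above 1, with a median log2 ratio of 0.58. The shares over all genes were 2.38% called, and 10.9% higher and 3.31% lower before adjustment. Ratios were above 1 for 62.7% of all genes, with a median log2 ratio of 0.08. Their summed signal above the floor was 404 after partial discectomy and 275 in sham by the authors' deposited table, a ratio of 1.47, with no marker at the floor. Cdh5 and Eng, the 2 most abundant, had ratios in the authors' deposited table of 1.49 (0.878 to 2.51) and 1.35 (0.897 to 2.02). Notch4 equalled 4.04% of that sum after partial discectomy and 3.91% in sham, Notch1 13.1% and 13.7%, and Dll4 0.748% and 0.806%, by the authors' deposited table. Of the other members, Notch2 equalled 40.4% after partial discectomy and 59.4% in sham, Notch3 8.21% and 11.5%, Jag1 7.45% and 18.2%, Dll1 0.751% and 1.03%, Hes1 2.20% and 3.19%, Hey1 3.12% and 3.75%, and Heyl 4.08% and 4.91%, by the same measure. On the summed osteoblast markers Notch1 equalled 0.0754% after partial discectomy and 0.0691% in sham, Notch4 0.0232% and 0.0198%, and Dll4 0.00429% and 0.00407%, by the authors' deposited table. By that measure the other members were lower after partial discectomy: Notch2 0.232% and 0.300%, Notch3 0.0471% and 0.0579%, Jag1 0.0427% and 0.0917%. Dll1 equalled 0.00431% and 0.00521%, Hes1 0.0126% and 0.0161%, Hey1 0.0179% and 0.0189%, and Heyl 0.0234% and 0.0248%. Col1a1 holds much of this sum and its ratio has 95% limits of 0.134 to 11.3, so these percents are uncertain. The part of endothelial cells in the differences of Notch1 and Notch4 was not tested.

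Arterial markers had a median log2 ratio of 0.14 over 6 genes in the authors' deposited table, and 1 was called, Bmx, a kinase of arterial endothelium, at a ratio of 2.54 (1.67 to 3.87, adjusted p = 0.0453). The share called higher over all genes was 2.28%. Unc5b and Efnb2, the most abundant of them, had ratios in the authors' deposited table of 1.10 (0.624 to 1.94) and 1.10 (0.821 to 1.47), and the summed arterial signal was 109.8 after partial discectomy and 97.1 in sham. Markers of pericytes and smooth muscle stood beside Jag1 and Notch3. Of 12 such genes 0 were called in the authors' deposited table, 0 were higher and 1 lower at an unadjusted p under 0.05, with 5 ratios above 1, 7 below and a median log2 ratio of -0.28. For all genes that rule gave 10.9% higher and 3.31% lower, and 62.7% of ratios were above 1. Their summed signal was 521 after partial discectomy and 651 in sham by the authors' deposited table, a ratio of 0.801, with no marker at the floor. Cspg4 and Rgs5, the most abundant, had ratios in the authors' deposited table of 0.678 (0.404 to 1.14) and 1.02 (0.724 to 1.44). Jag1 equalled 5.78% of that sum after partial discectomy and 7.69% in sham, and Notch3 6.37% and 4.85%, by the authors' deposited table. By that measure the other members were all higher after partial discectomy: Notch1 10.2% and 5.79%, Notch2 31.3% and 25.1%, Notch4 3.14% and 1.66%. Dll1 equalled 0.583% and 0.437%, Dll4 0.580% and 0.341%, Hes1 1.71% and 1.35%, Hey1 2.42% and 1.59%, and Heyl 3.16% and 2.08%. Of 7 skeletal muscle genes 0 were called in the authors' deposited table, and all had ratios below 1, with summed signals of 153 after partial discectomy and 232 in sham. The part of these cells in the difference of Jag1 was not tested.

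Many blood cell genes were called. By the authors' deposited table, 8 of 10 neutrophil genes, 7 of 8 erythroid genes and 5 of 7 megakaryocyte genes were called higher after partial discectomy and 0 lower, with median log2 ratios of 3.62, 2.96 and 1.46. The same rule called 2.28% of all genes higher and 0.104% lower. Their summed signals above the floor were 1304 after partial discectomy and 98.4 in sham for neutrophils, 230.1 and 11.8 for erythroid cells, and 39.0 and 3.75 for megakaryocytes by the authors' deposited table. Calls in the higher direction in the authors' deposited table covered 4 of 9 genes for lymphocytes of the T and NK lineages, 2 of 8 for monocytes and macrophages and 1 of 8 for B cells, with 0 lower. In sham, 2 of the 7 megakaryocyte genes and 3 of the 9 T and NK genes lay close to the floor. Examples were Tubb1 at 1.03 and Ncr1 at 1.06. Marrow stroma had 3 of 7 genes called higher in the authors' deposited table, and osteoblast, chondrocyte and osteoclast lists had 0 of 12, 0 of 8 and 0 of 8, with median log2 ratios of 0.39, -0.01 and 0.79. Several blood cell types make Notch1 and Notch2, and the part of blood cells in the Notch values was not tested.

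**Figure D4:**
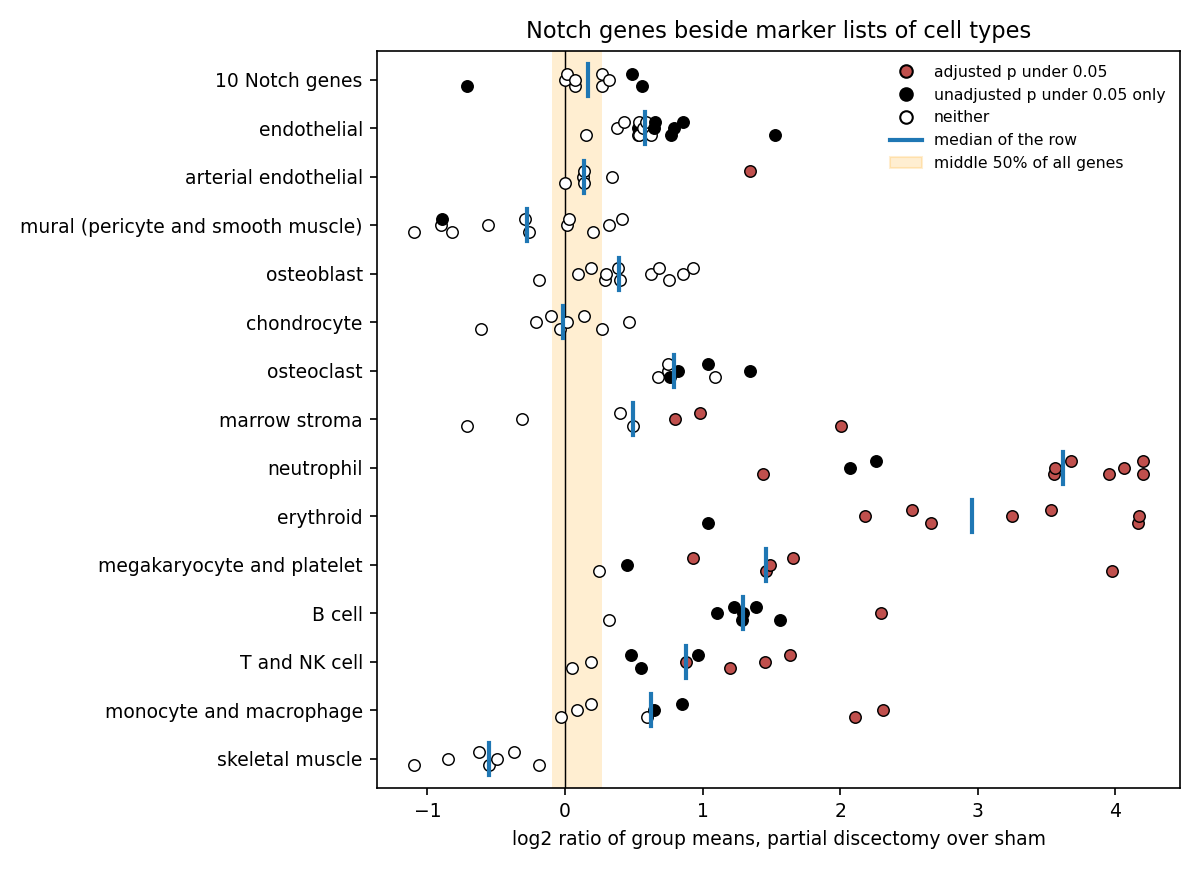
Log2 ratio of group means, partial discectomy over sham, for the 10 Notch genes and for 14 lists of cell type markers. Red points have an adjusted p under 0.05, black an unadjusted p under 0.05 only, blue ticks are row medians and the shaded band holds the middle 50% of all genes; the Notch row spans -0.71 to 0.56 with no red point, while neutrophil medians lie at 3.62.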

How the data were processed

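RNA was sequenced from 3 partial discectomy and 3 sham libraries, grouped by the sample titles. Reads were aligned with STAR 2.6.1d to mm10, per the submitters' processing notes; the sources used here name no counter, gene filter, normalization or test. The 10 genes, the lists and the tests were chosen with earlier results of these data known. The authors' deposited table gives signal (group means, and the highest value, total and geometric mean over 6 libraries) in a unit not named, with a floor of 1; no library totals and no depth could be had, so no interval resting on depth is given. The deposited ratio is the ratio of group means, the deposited log2 column its logarithm, and the deposited signed fold change and its 95% limits, entered as a score, were turned into ratios. The deposited p-value is the authors' own, and the deposited adjusted p equals its Benjamini-Hochberg adjustment over all 23170 genes; a gene was called at an adjusted p under 0.05.

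A fit on values per library was not possible, so no test was added. With 3 libraries a group, the deposited means, highest value and geometric mean limit the values that single libraries can take, and could be met together for all 23170 genes. The limits were checked on simulated data with known library values, which held the same floor and the same summary columns by construction. That check covers the calculation and cannot show that the deposited columns were made in this way. Gene ends are given 1 base before the deposited end, which with the deposited start then equals a GENCODE vM21 gene of that name for 22454 genes. All 10 genes are described. Of other pathway genes those called, those with an unadjusted p under 0.05 and the most abundant of each role are named, with a few more such as Rfng and Numbl. Of marker lists at most the 2 most abundant and any gene called are named. Python 3.11.15 with pandas 2.3.3, numpy 2.4.6 and scipy 1.17.1 was used. Alternatives were other sets of genes for the adjustment, other call rules, the floor subtracted, a pseudocount of 0.5 with it, centring, and the highest library left out. The second deposited file held gene positions and no measurement and was not used.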

Additional observations from a re-analysis of the deposited data

How the results depend on the processing

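The count of 0 called Notch genes held under each set of genes over which the deposited p-values were readjusted. Before adjustment, p under 0.05 gave 2 higher and 1 lower; the 95% limits gave 1 higher and 1 lower, the limits set against the median of all genes gave 0 and 1, and groups certainly apart, a rule chosen after seeing the data, gave 0 and 1. For the 48 other pathway genes the same 4 rules gave 5, 5, 3 and 3 higher, and 0, 1, 1 and 2 lower. Centring turned 3 small log2 ratios. Against the median of all genes, Notch3 came to -0.0091, Dll1 to -0.0090 and Hes1 to -0.064; against the log2 ratio of the summed means, 0.13, Notch3 came to -0.062, Dll1 to -0.061 and Hes1 to -0.116. Subtracting the floor, with or without a pseudocount of 0.5, changed no direction among the 10 genes. Without the highest library, where its group is certain, the log2 ratio was 0.38 for Notch1, 0.49 for Notch4, -0.39 for Jag1 and 0.057 for Dll4; this takes away the most extreme value by construction. The median log2 ratio of the 10 genes was 0.17, and 0.19 with the floor subtracted, 0.18 with the pseudocount added, 0.089 and 0.036 under the 2 ways of centring and 0.071 without the highest libraries. No paired analysis was possible because the table holds group means and no values per library. For the same reason leaving out each replicate in turn and count-based tests were not run.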

Other observations

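Some further proteins that can bind Notch receptors, and the genes Hes3 and Hes6, were chosen after the values of the 10 genes were seen, so no count over them is given. Hey2 and Hes7 were already on the pathway lists and are counted among the 48 pathway genes above. The mean signal of Ccn3, a matricellular protein that can bind Notch1, was 2.27 after partial discectomy, against 5.57 in sham tissue. Its ratio in the authors' deposited table was 0.409, with 95% limits of 0.238 and 0.702 and an adjusted p of 0.148, and its partial discectomy libraries were certainly below the sham libraries. For Mfap5, a microfibril protein, the authors' deposited table gave 0.496, with limits of 0.296 and 0.830 and an adjusted p of 0.219. The thrombospondin Thbs2 came to 0.749, with limits of 0.505 and 1.11, and Mfap2, Cntn1 and Dner to 0.804, 0.807 and 0.795 by the authors' deposited table. Among further HES and HEY genes, the authors' deposited table gave ratios of 1.22 for Hey2, with limits of 0.698 and 2.14, 1.23 for Hes6, with limits of 0.850 and 1.77, 1.09 for Hes7 and 0.963 for Hes3. None of these genes passed an adjusted p under 0.05.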
